A study of Rattus norvegicus with 6 samples.

Results

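The genes described here encode the contractile apparatus of smooth muscle cells and myofibroblasts, and they were measured in the spleens of rats with portal hypertension. Whole spleen RNA taken 10 days after surgery was compared between 3 rats with partial ligation of the portal vein (PPVL) and 3 rats with a sham operation, all of them male and of the Sprague-Dawley strain. In PPVL rats the portal vein was narrowed to a set width by tying it together with a needle that was then withdrawn, and in sham rats the vein was exposed but not tied. PPVL raises portal pressure without cirrhosis, and each array held RNA from a small piece of 1 whole spleen. The set is 10 named genes, each read from the transcript cluster (the set of probes summarised for 1 transcript) with a single gene symbol and, where a gene had several, the highest mean over the 6 arrays. A value was obtained for 8 of these 10 genes (*Tagln*, *Myh11*, *Des*, *Actg2*, *Mylk*, *Tpm2*, *Myl9* and *Lmod1*), out of 18166 genes measured in the same way, and *Acta2* and *Cnn1* were not analysed here.

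Smooth muscle cells shorten when calcium entering the cell binds calmodulin and activates myosin light chain kinase, which phosphorylates the regulatory light chain of myosin and lets the myosin heavy chain pull on actin filaments. Tropomyosin, calponin and transgelin lie along these filaments, leiomodin starts new ones, and desmin filaments tie the apparatus to the cell membrane. In the spleen such cells are found in the walls of vessels and in the capsule and trabeculae, and reticular fibroblasts and myofibroblasts share part of the same set of genes. Many of these genes are regulated in other tissues by serum response factor (SRF) with its coactivators myocardin and MRTF.

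Before the results, the 6 arrays themselves are described. The array of PPVL rat 1 stood apart: all 20 measured genes of a list of exocrine pancreas markers were highest in it, and the log2 of their summed intensity was 14.81 there and 9.93 to 10.03 in the other 5 rats. In the same rat 11 of 14 fibroblast and reticular cell genes were highest, with a summed level of 14.09 there, 13.4 and 13.48 in the other PPVL rats and 13.31 to 13.41 in the sham rats. Sham rat 2 had the highest value for 7 of 9 mesothelial genes, whose summed level was 11.23 there, 10.34 to 10.64 in PPVL rats and 10.17 and 10.62 in the other sham rats. Each member is therefore also given without PPVL rat 1. Of the markers of skeletal and heart muscle, 0 of 19 measured genes passed in limma at an unadjusted p under 0.05 (median log2 difference -0.04), and their summed level was 10.17 to 10.27 in PPVL rats and 10.15 to 10.31 in sham rats. *Actc1*, *Myh1*, *Myh2*, *Myh4*, *Mylpf* and *Myl2* of that list had no value. The array medians were 6.22 to 6.33, highest in sham rat 3, and 13 measured genes that mark spleen and its lymphocytes and macrophages had a median of 10.11 to 10.37 in every rat. Sham rat 3 also had the lowest array weight in limma, 0.569, against 0.947 to 1.267 in the other rats. A low weight marks an array that varies more.

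In limma, 2 of the 8 contractile genes were up-regulated in PPVL spleens and 0 were down-regulated, with a call made where the unadjusted p was under 0.05. The genes that passed were *Tpm2*, which encodes beta-tropomyosin, and *Mylk*, which encodes myosin light chain kinase. Of all 18166 genes, 2.69% passed as higher and 1.55% as lower, 4.23% in all. The adjusted limma p was 0.782 for *Tpm2* and 0.973 for each of the other 7 contractile genes. After Benjamini-Hochberg adjustment in limma over all 36685 transcript clusters, 0 clusters had an adjusted p under 0.05 (lowest adjusted p 0.753). Of the same 36685 clusters, 1764 had an unadjusted limma p under 0.05, a share that is itself below 0.05. The log2 difference between PPVL and sham spleens was above 0 for all 8 genes, with a median of 0.23, against 0.005 over all genes, of which 51.7% had a difference above 0. For 4 of the 8 (*Tpm2*, *Mylk*, *Tagln* and *Actg2*) the lowest PPVL value exceeded the highest sham value, as was the case for 6.64% of all genes, and for 0 of the 8 the reverse held, as it did for 4.7% of all genes. The highest of the 6 values belonged to a PPVL rat in 8 of 8 genes, against 48.0% of all genes. The 8 genes were measured in the same 6 spleens and are not independent of each other. In a whole tissue, more cells of a type and more RNA per cell cannot be told apart.

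*Tpm2* gave the firmest difference of the set. Its log2 intensity was 8.22, 8.09 and 8.23 in PPVL rats 1 to 3 and 7.7, 7.51 and 7.69 in sham rats 1 to 3. The lowest PPVL spleen was well above the highest sham spleen, and the 3 PPVL rats lay 0.58, 0.46 and 0.6 above the sham mean, so that no single rat carried the difference. The means were 8.18 ± 0.08 in PPVL rats and 7.63 ± 0.11 in sham rats (SD, n = 3 each), a log2 difference of 0.55 (SE 0.1) or 1.46-fold (95% confidence interval 1.25 to 1.71). The call was kept in each of the 16 alternative fits, although some of these could not change the log2 difference. Without PPVL rat 1 the log2 difference was 0.53 (95% confidence interval 0.24 to 0.82), and over the 6 fits that each left out 1 rat it ranged between 0.48 and 0.59. Beta-tropomyosin forms coiled-coil dimers along the actin filament of smooth and skeletal muscle. A part of skeletal muscle in the *Tpm2* difference was not tested.

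*Mylk* was higher in PPVL spleens by a smaller margin. Its log2 intensity was 9.14, 9.03 and 8.96 in PPVL rats 1 to 3 and 8.89, 8.84 and 8.6 in sham rats 1 to 3. The groups did not overlap, but the lowest PPVL rat and the highest sham rat were close. The log2 difference was 0.27 (SE 0.11) or 1.2-fold (95% confidence interval 1.01 to 1.44). The call was lost when any PPVL rat, sham rat 2 or sham rat 3 was left out, with log2 differences between 0.18 and 0.32 over the 6 fits that each left out 1 rat. Without PPVL rat 1 the log2 difference was 0.22 (95% confidence interval -0.09 to 0.53). *Mylk* is also among the genes the study named from these same arrays, so its call is not independent evidence.

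The upstream sequences of these genes are shown because *Tpm2* and *Mylk* were the members that passed the test, and because contractile genes are known for a small set of promoter elements. RefSeq (GRCr8) start sites were available for 6 of the 10 genes. Each run below is the 250 bases before the RefSeq start, 5′ to 3′, with capitals marking GGGCGG (a GC box, bound by the Sp1 family) and CATTCC (an MCAT element, bound by the TEAD family).
Tpm2, chr5:62575727-62575976, minus strand: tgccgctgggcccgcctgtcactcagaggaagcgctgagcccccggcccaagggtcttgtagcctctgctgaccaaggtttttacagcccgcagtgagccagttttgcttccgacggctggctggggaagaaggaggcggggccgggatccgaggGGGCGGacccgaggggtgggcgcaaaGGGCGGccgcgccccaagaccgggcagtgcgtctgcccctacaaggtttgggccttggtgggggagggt
Mylk, chr11:79498575-79498824, minus strand: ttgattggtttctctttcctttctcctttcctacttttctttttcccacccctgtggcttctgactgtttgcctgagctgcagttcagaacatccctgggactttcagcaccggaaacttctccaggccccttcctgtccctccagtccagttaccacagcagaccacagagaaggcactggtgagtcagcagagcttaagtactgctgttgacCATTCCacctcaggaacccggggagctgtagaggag
Both starts lie inside the annotated gene, 340 bases from its 5′ end in *Tpm2* and 36876 bases in *Mylk*, so the RefSeq span of each gene extends further upstream than the window. The *Tpm2* window held 2 GC boxes and a GC content of 68.8%, whereas the *Mylk* window held 1 MCAT element and a GC content of 52.4%. Over both strands, GGGCGG occurred in the windows of *Tpm2* and *Des* (2 of 6) and in 30.5% of 33469 RefSeq windows of the same length, and CATTCC in those of *Acta2* and *Mylk* (2 of 6) and in 12.1% of all. The CArG box, the element to which SRF binds, was matched in 0 of the 6 windows and in 1.5% of all. The lack of a match does not show that a window has no SRF site. A match is a description of the letters only.

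**Figure D1:**
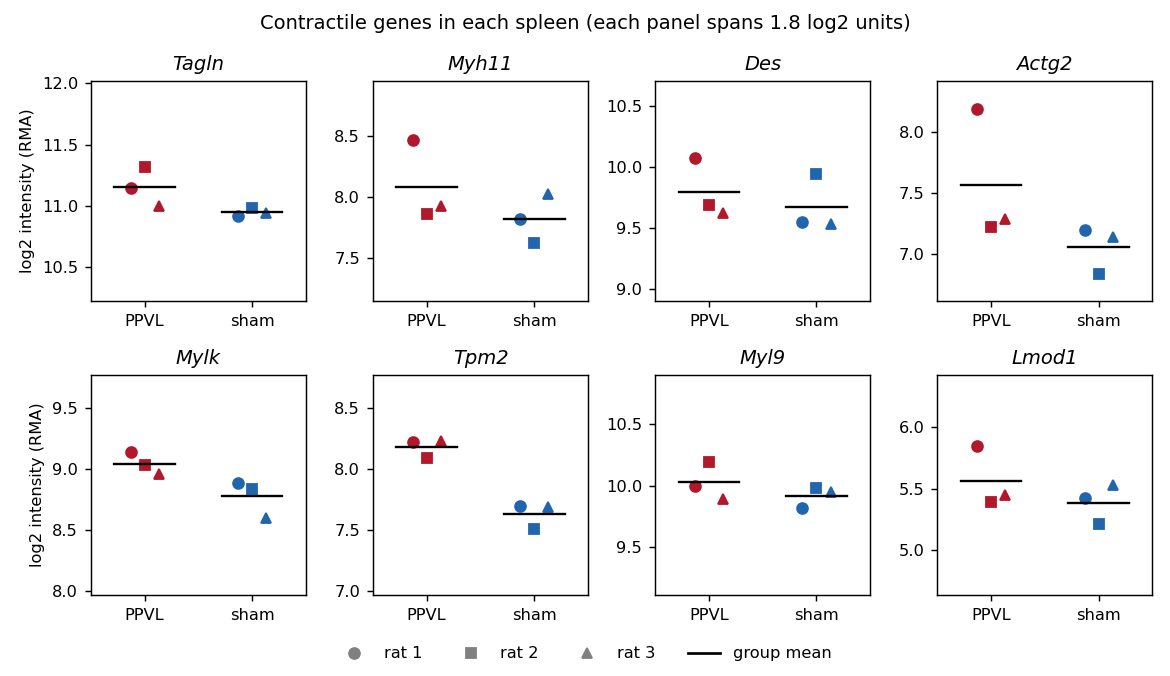
Log2 RMA intensity (vertical axis) of the 8 contractile genes in each of 3 PPVL spleens (red, left) and 3 sham spleens (blue, right), with symbols for rats 1 to 3 and a line at the group mean. The *Tpm2* values of PPVL rats (8.09 to 8.23) lie clear of those of sham rats (7.51 to 7.7), while *Actg2* has 1 high value, 8.19 in PPVL rat 1.

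The actin of the set behaved differently. *Actg2* encodes the gamma actin of visceral smooth muscle. Its log2 intensity was 8.19, 7.22 and 7.29 in PPVL rats 1 to 3 and 7.2, 6.84 and 7.14 in sham rats 1 to 3. PPVL rat 1 was 0.9 above the next spleen, and the other PPVL rats lay only just above the highest sham rat. The log2 difference of 0.51 (SE 0.27, 95% confidence interval -0.12 to 1.14) was nearly as large as that of *Tpm2* but did not pass the test. It was 0.19 (-0.15 to 0.54) without PPVL rat 1, and 0.68 without PPVL rat 2, the 1 omission with which it passed.

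The myosin heavy chain and leiomodin had the same high rat. *Myh11*, the smooth muscle myosin heavy chain and the most specific marker of differentiated smooth muscle, had log2 intensities of 8.47, 7.86 and 7.93 in PPVL rats 1 to 3 and 7.82, 7.63 and 8.03 in sham rats 1 to 3. Apart from PPVL rat 1, which was 0.43 above the next spleen, the groups overlapped. The log2 difference of 0.26 (SE 0.19, 95% confidence interval -0.19 to 0.7) did not pass and was 0.07 (-0.28 to 0.42) when PPVL rat 1 was left out. *Lmod1*, the leiomodin that nucleates actin filaments in smooth muscle, was the dimmest member, at 5.85, 5.39 and 5.45 in PPVL rats 1 to 3 and 5.42, 5.21 and 5.53 in sham rats 1 to 3. PPVL rat 1 again stood above the other spleens, by 0.32. The log2 difference of *Lmod1* was 0.18 (SE 0.15, 95% confidence interval -0.18 to 0.54), which did not pass, and 0.04 (-0.28 to 0.36) without that rat.

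*Des*, which encodes the intermediate filament protein desmin, changed sign with the rats included. Its log2 intensity was 10.07, 9.69 and 9.62 in PPVL rats 1 to 3 and 9.55, 9.94 and 9.53 in sham rats 1 to 3, with PPVL rat 1 and sham rat 2 as the high spleen of each group. The log2 difference was 0.12 (SE 0.17, 95% confidence interval -0.28 to 0.52), which did not pass, and -0.02 (-0.41 to 0.37) without PPVL rat 1. The group difference was thus smaller than the spread among rats of either group.

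*Tagln* and *Myl9*, the brightest members, followed another order of rats. *Tagln* encodes transgelin (SM22), an early marker of smooth muscle and of myofibroblasts. Its log2 intensity was 11.147, 11.324 and 11.002 in PPVL rats 1 to 3 and 10.915, 10.984 and 10.938 in sham rats 1 to 3, so that the groups were apart by little, with PPVL rat 2 the highest. The log2 difference was 0.21 (SE 0.1, 95% confidence interval -0.04 to 0.46) and did not pass. It was 0.22 without PPVL rat 1, and without PPVL rat 3 it was 0.29 and passed. *Myl9*, the regulatory light chain on which myosin light chain kinase acts, had log2 intensities of 10.003, 10.191 and 9.891 in PPVL rats 1 to 3 and 9.815, 9.981 and 9.946 in sham rats 1 to 3. These groups overlapped, and the log2 difference was 0.11 (SE 0.11, 95% confidence interval -0.14 to 0.37) and did not pass. It was 0.13 (-0.2 to 0.45) without PPVL rat 1.

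**Figure D2:**
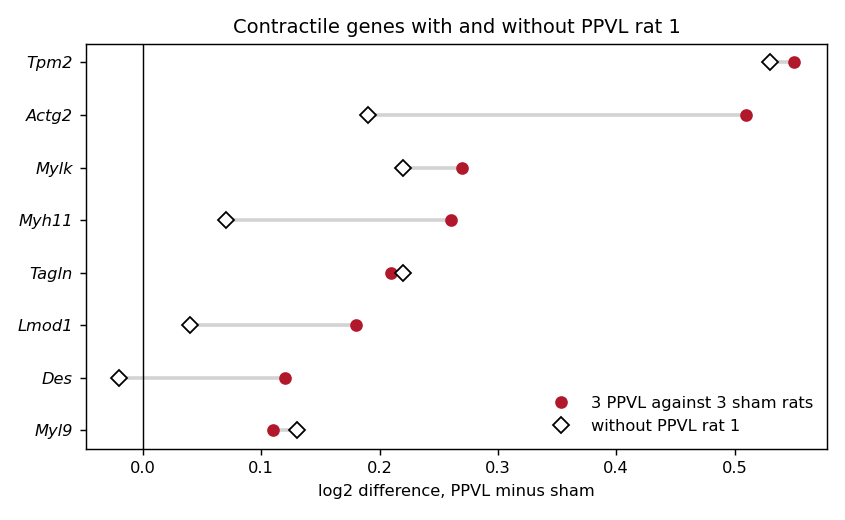
Log2 difference between PPVL and sham spleens (horizontal axis) for each contractile gene, with all 6 rats (filled circles) and without PPVL rat 1 (open diamonds). Leaving that rat out hardly moves *Tpm2* (0.55 with it and 0.53 without), whereas *Actg2* is 0.51 with it and 0.19 without, and *Myh11* 0.26 with it and 0.07 without.

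The members thus fell into several orders of rats. PPVL rat 1 held the highest value of *Actg2*, *Myh11*, *Lmod1*, *Des* and *Mylk* (5 of 8 genes, against 19.2% of all genes), PPVL rat 2 that of *Tagln* and *Myl9*, and PPVL rat 3 that of *Tpm2*. The summed level of the 8 genes on the log2 scale was 12.54, 12.5 and 12.3 in PPVL rats 1 to 3 and 12.19, 12.29 and 12.21 in sham rats 1 to 3. With PPVL rat 1 left out, the median log2 difference of the 8 genes was 0.16 (0.002 over all genes), and 1 of 8 passed as higher, against 1.62% of all genes. The pancreas markers and the fibroblast and reticular cell genes were also highest in PPVL rat 1, and their part in the high values of *Actg2*, *Myh11*, *Lmod1* and *Des* there was not tested.

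Whether the muscle forms moved apart from the forms that most cells use was read within each array, as the log2 ratio of a contractile gene to its nonmuscle counterpart. In all, 10 pairs were compared by a two-sided exact permutation test, which cannot go below p = 0.1 with 3 rats against 3. The ratio of *Tpm2* to *Tpm4*, a tropomyosin of nonmuscle cells, was higher in PPVL rats, by 0.6, 0.51 and 0.67 relative to the sham mean, than in the sham rats, at 0.13, -0.24 and 0.12. The change of this ratio was 0.59 on the log2 scale (exact p = 0.1, 0.333 after Benjamini-Hochberg adjustment over the 10 pairs). *Tpm2* to *Tpm3* changed by 0.56 and *Tagln* to *Tagln2* by 0.21, both with the groups apart and the same exact p of 0.1. Of these 3 pairs 2 share *Tpm2*. *Tpm4*, *Tpm3* and *Tagln2* had log2 differences of -0.05, -0.01 and 0.0, so the 3 ratios largely repeat the differences of *Tpm2* and *Tagln* given above. The groups overlapped for the other 7 pairs, *Actg2* to *Actb* (0.41), *Lmod1* to *Tmod3* (0.23), *Myh11* to *Myh9* (0.2), *Des* to *Vim* (0.08), *Myl9* to *Myl12a* (-0.01), *Myl9* to *Myl12b* (-0.11) and *Myh11* to *Myh10* (-0.36), with exact p-values between 0.2 and 0.8.

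In the last of these pairs it was the nonmuscle partner that passed the test. *Myh10*, the nonmuscle myosin IIB heavy chain, was the 1 gene of 12 measured counterparts that passed (2.69% of all genes passed as higher), at 7.22, 7.0 and 6.43 in PPVL rats 1 to 3 and 6.24, 6.38 and 6.18 in sham rats 1 to 3. PPVL rats 1 and 2 were clearly above the sham rats and PPVL rat 3 only slightly. The log2 difference was 0.62 (SE 0.2, 95% confidence interval 0.14 to 1.09, adjusted p = 0.973 in limma). Leaving out PPVL rat 1 (0.45), PPVL rat 2 or sham rat 3 ended its call. The median log2 difference of the 12 counterparts, which include *Lmod3*, a leiomodin of striated muscle, was 0.04, and *Vim*, *Actb* and *Myh9* had differences of 0.04, 0.1 and 0.06 that did not pass.

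**Figure D3:**
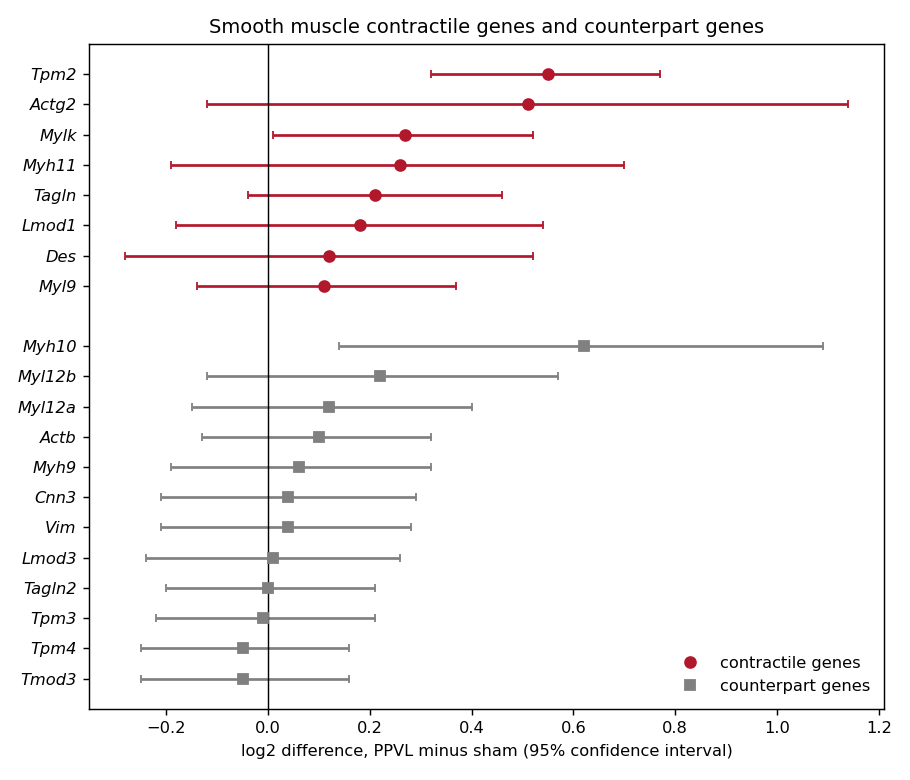
Log2 difference between PPVL and sham spleens (horizontal axis) with its 95% confidence interval in limma for the 8 contractile genes (red circles) and 12 counterpart genes (grey squares), nonmuscle forms except for *Lmod3*. The intervals of *Tpm2*, *Mylk* and *Myh10* lie above 0, and the counterparts other than *Myh10* lie between -0.05 and 0.22.

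Other structural proteins anchor and organise the contractile filaments. Of 25 measured genes for them, 10 passed as higher and 0 as lower, against 2.69% and 1.55% of all genes, 24 had a difference above 0, and the median log2 difference was 0.24. *Parva*, an actin-binding partner of integrin-linked kinase at focal adhesions, had a log2 difference of 0.5 (SE 0.13, 95% confidence interval 0.19 to 0.81, adjusted p = 0.973 in limma), with 8.96, 8.83 and 8.65 in PPVL rats 1 to 3 and 8.27, 8.52 and 8.16 in sham rats 1 to 3. *Nexn*, the F-actin-binding protein nexilin, was higher by 0.44 (SE 0.13, 95% confidence interval 0.12 to 0.75, adjusted p = 0.973 in limma), with 6.33, 6.37 and 6.52 in PPVL rats 1 to 3 and 6.21, 5.92 and 5.77 in sham rats 1 to 3. The groups were apart for both genes, and both calls were kept in each of the 16 alternatives. *Pdlim5*, which holds proteins on alpha-actinin, and *Synpo2*, an actin bundler of smooth muscle, were higher by 0.33 and 0.37, and the other 6 genes that passed by 0.22 to 0.28. These 8 calls were all lost without PPVL rat 1 (*Pdlim5* 0.28 and *Synpo2* 0.31 there), and the count of 10 was then 2, against 1.62% of all genes. The median difference moved less, to 0.21 for the 25 genes without that rat. Among the lost calls *Pdlim3* (0.26 with it and 0.27 without), *Sorbs2* (0.22 and 0.21) and *Fhl1* (0.24 and 0.22) were about as large. *Fermt2* (0.23 and 0.16), *Pdlim7* (0.28 and 0.21) and *Cald1* (0.25 and 0.2) were smaller without it. These 6 genes were named after their values were seen. The count was 4 and 7 with PPVL rats 2 and 3 left out in turn, and 3, 10 and 6 with sham rats 1, 2 and 3 left out in turn. The summed level of the 25 genes was 13.93 to 14.1 in PPVL rats and 13.73 to 13.93 in sham rats.

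**Figure D4:**
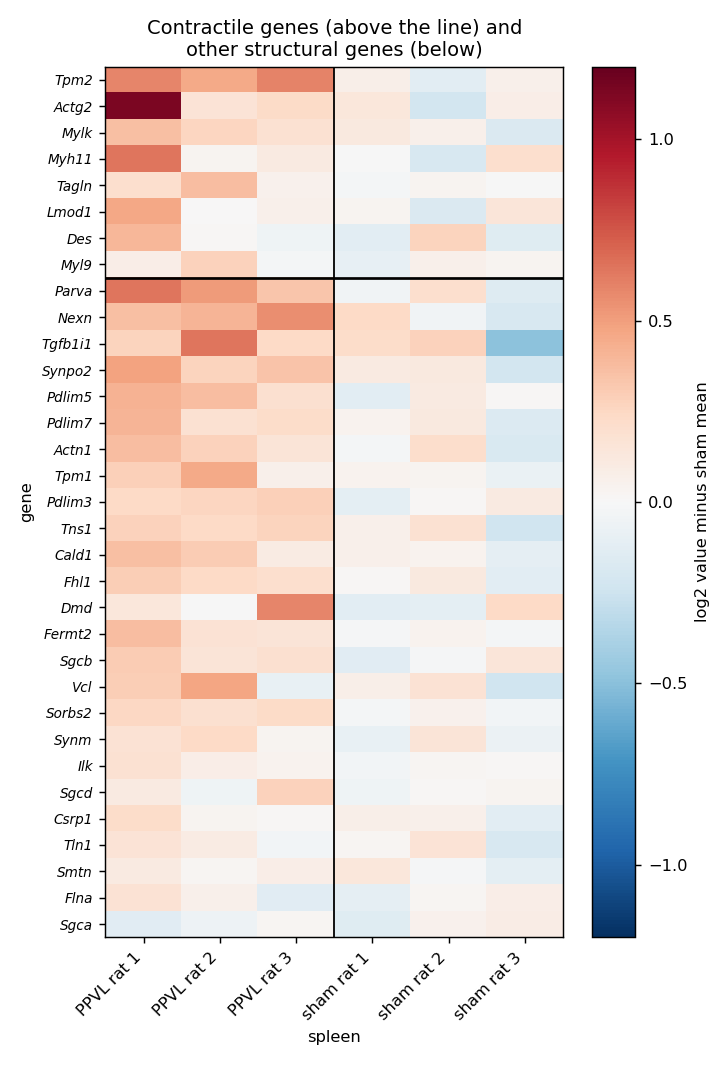
Log2 intensity minus the sham mean (colour) for the 8 contractile genes above the line and the 25 other structural genes below it, in each PPVL spleen (left) and sham spleen (right). The 3 PPVL columns are mostly red, *Tpm2* at 0.58, 0.46 and 0.6, and *Actg2* is deepest in PPVL rat 1 at 1.13.

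Genes that set the phosphorylation of the light chain, beside *Mylk*, gave 2 calls as higher among 13 measured, against 2.69% of all genes (median log2 difference 0.09). *Prkg1*, the cGMP-dependent kinase that relaxes smooth muscle, was higher by 0.34 (SE 0.11, adjusted p = 0.973 in limma). *Rock2*, a kinase that inhibits myosin phosphatase, and *Ppp1r12b*, a targeting subunit of that phosphatase, both had a difference of 0.12 and did not pass. *Prkg1* no longer passed without PPVL rat 1 (0.24), and it also lost its call without sham rat 1. The count for the 13 genes was 0 in either case, and their median without PPVL rat 1 was 0.04.

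Ion channels, calcium-handling proteins and receptors that start or oppose contraction gave 2 calls as higher among 21 measured, against 2.69% of all genes, both in the L-type calcium channel. *Cacna2d1*, its auxiliary subunit, had log2 intensities of 6.72, 6.44 and 6.6 in PPVL rats 1 to 3 and 6.15, 6.22 and 6.18 in sham rats 1 to 3. The groups were apart, the log2 difference was 0.41 (SE 0.1, 95% confidence interval 0.17 to 0.64, adjusted p = 0.973 in limma), and the call was kept in each of the 16 alternatives. *Cacna1c*, the pore-forming subunit, was higher by 0.33 (SE 0.11, adjusted p = 0.973 in limma) at a low intensity, with 5.42, 5.15 and 5.15 in PPVL rats 1 to 3 and 5.0, 4.79 and 4.92 in sham rats 1 to 3, and its call was lost without PPVL rat 1 (0.24) or sham rat 2. *Agtr1a*, an angiotensin II receptor, and *Pln*, the inhibitor of the calcium pump, had differences of 0.38 and 0.22 that did not pass. The related receptor *Agtr1b* had a difference of 0.04 that did not pass. The median log2 difference of the 21 genes was 0.04.

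Of 10 measured regulators of contractile genes, *Mef2c*, a transcription factor of muscle and of lymphoid cells, was the 1 that passed (2.69% of all genes passed as higher). It was higher by 0.24 (SE 0.09, adjusted p = 0.973 in limma), with 10.89, 10.69 and 10.86 in PPVL rats 1 to 3 and 10.55, 10.6 and 10.59 in sham rats 1 to 3, and it no longer passed when PPVL rat 1 (0.2), PPVL rat 3 or any single sham rat was left out. *Fhl2*, *Mrtfa* and *Elk1* had differences of 0.26, 0.2 and 0.16 that did not pass. *Srf* itself, at 9.08, 8.99 and 9.02 in PPVL rats 1 to 3 and 8.94, 9.04 and 8.62 in sham rats 1 to 3, had a difference of 0.16 (95% confidence interval -0.13 to 0.46), and *Myocd*, which encodes myocardin, one of 0.03 (-0.31 to 0.38), and neither passed. *Srf* and *Myocd* were named for their role, after their values were seen. The median log2 difference of the 10 genes was 0.16. *Mylk*, *Parva*, *Prkg1*, *Cacna2d1*, *Cacna1c*, *Mef2c* and *Myh10* are among the genes the study itself took from these arrays.

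Markers of the cells that could carry the contractile genes are given beside them. For comparison with these counts, 2.69% of all genes passed as higher and 1.55% as lower. Of 12 mural cell (pericyte and vessel wall) markers 2 passed, *Itga8* (log2 difference 0.79, 95% confidence interval 0.43 to 1.15) and *Pdgfrb* (0.51, 0.09 to 0.94). The median log2 difference of the 12 was 0.12 (0.1 without PPVL rat 1), and 11 of them had a difference above 0. The summed level of the 12 was 11.63 to 11.86 in PPVL rats and 11.45 to 11.46 in sham rats. That sum is weighted to the brightest markers, which include *Itga8* and *Pdgfrb*. *Pdgfrb* lost its call without PPVL rat 1 (0.39) or sham rat 3, and *Itga8* kept it throughout. Of 14 fibroblast and reticular cell genes, with a median log2 difference of 0.2 (0.11 without PPVL rat 1), 3 passed, *Col1a1* (1.51, 95% confidence interval 0.47 to 2.54), *Col3a1* (0.92, 0.13 to 1.72) and *Col1a2* (0.91, 0.09 to 1.74). *Col1a1* was still called without PPVL rat 1 at 1.06, and *Col3a1* (0.57) and *Col1a2* (0.54) were not. Each of these 2 also lost its call without sham rat 1 or sham rat 3. In the same list *Fbln1* (-0.2) and *Cxcl13* (-0.17) had every PPVL value below the sham values, as 4.7% of all genes did, and did not pass. *Ccl19*, *Ccl21* and *Pdpn* had differences of 0.13, 0.11 and 0.1 that did not pass. *Lum* (1.32) and *Postn* (0.78) had every PPVL value above the sham values, as 6.64% of all genes did, and *Dcn* (1.4) overlapped. *Dcn*, *Lum* and *Postn* did not pass either, and each was highest in PPVL rat 1. These genes other than *Fbln1* were named after their values were seen. Single genes passed among 9 mesothelial (*Wt1*, 0.43), 8 adipocyte (*Adipoq*, 0.48) and 13 spleen (*Tlx1*, 0.36) genes, and 0 of 7 endothelial and 0 of 20 pancreas genes did in limma. The adjusted limma p was 0.847 for *Itga8* and 0.973 for each other gene that passed in these marker lists. *Itga8*, *Pdgfrb*, *Col1a1*, *Col3a1*, *Col1a2* and *Adipoq* are also among the genes the study took from these same arrays. Their calls are therefore not independent evidence. *Wt1* was the 1 mesothelial gene with a difference above 0: the median of the 9 was -0.27, with *Upk3b* at -0.73 and *Krt19* at -0.54, neither of which passed. That median was 0.09 without sham rat 2, and 4 mesothelial genes passed as lower without sham rat 1. Of those single calls *Tlx1* was kept in all alternatives, and *Wt1* (0.35) and *Adipoq* (0.39) were lost without PPVL rat 1. *Wt1* also lost its call when PPVL rat 3, sham rat 1 or sham rat 3 was left out, and *Adipoq* when PPVL rat 2, sham rat 1 or sham rat 2 was. The part of these cell types in the differences of the contractile genes was not tested.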

How the data were processed

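Splenic mRNA of 6 rats, 1 Affymetrix array each, was summarised by the authors with RMA in Transcriptome Analysis Console (named without versions in the submitters' processing notes), and the deposited log2 values were used as given. The genome build is not given in the sources used here. The table held 36685 transcript clusters with 0 missing values, of which 18511 carried 1 gene symbol, 575 several and 17599 none in the platform annotation, and 18394 of the 18511 matched RefSeq. The groups were contrasted on all clusters in limma 3.58.1 under R 4.3.3 (lmFit and eBayes, no covariates), with Benjamini-Hochberg adjustment over all of them. A difference was called at an unadjusted p under 0.05, the threshold in the study's methods. The script was tested on simulated data. Depth has no meaning for arrays, and 3 rats per group limit the precision. Array intensities of different genes were not compared as levels, and summed levels are the log2 of summed linear intensities. The number of rats that a label gives did not pair the groups. All 10 members were named, and in each other list up to 4 genes of smallest p, all that passed where under 10 did, and the counterparts paired with a member, except that 1 phosphorylation gene that passed is not reported here, and that in the marker lists mainly the genes that passed are named. Members and lists were chosen with earlier results of these data known, and some lists hold genes the study named from these arrays. The 16 alternatives covered normalization, filters, variance settings, a replicate block, the choice of cluster and leaving out each rat. Columns left unmapped numbered 0. Upstream sequences came from RefSeq GRCr8.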

Additional observations from a re-analysis of the deposited data

How the results depend on the processing

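The 8 contractile genes had 127 log2 differences under the 16 alternatives, of which 116 kept direction and side of the threshold, 7 lost the call (all *Mylk*), 3 gained it and 1 changed sign. Not every alternative could move them, so these counts overstate how far the results were tried. Taking the cluster highest in sham rats returned the main values of all 8 genes. The filters, the variance trend and the robust variance prior act on p but not on the log2 difference of a gene that is kept. *Lmod1* was dropped when clusters in the lowest 40 percent were left out. The count of contractile genes called higher was 2, 1 with array weights, 1 with median centring and 1 to 2 without single rats. Without single rats the calls as higher ranged over 2 to 10 for structural genes, 0 to 3 for phosphorylation genes, 1 to 3 for channels, calcium handling and receptors (0 to 1 lower), 0 to 3 for regulators and 0 to 2 for counterpart genes, and with the replicate block 2 mesothelial genes were called lower. With low clusters left out, channels, calcium handling and receptors gave 1. *Des* ranged from -0.02 to 0.26, *Myl9* to *Myl12a* from -0.05 to 0.04 and *Myl9* to *Myl12b* from -0.28 to 0.05. Of the 10 genes nearest the contractile profile, 1 to 6 were shared without single rats and 5 with low clusters left out. The causes were not tested. Rats of the same number correlated at -0.129, 0.143 and 0.119, so the numbers were not taken as pairs, and 1 of 3 PPVL rats correlated best with its own number. With the replicate number as a block 3 contractile genes were called, *Actg2*, *Mylk* and *Tpm2*, and the calls were 1 for phosphorylation genes and 0 for regulators (limma). With 3 arrays per group, only differences that are large against the spread of rats could be called, and *Cacna1c* and *Lmod1* were dim.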

Other observations

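Genes whose 6 values lay nearest to the mean profile of the 8 contractile genes, by the root mean square of the log2 distance over the 6 arrays after centring each gene, were *Polr3gl* (0.033), *Rasal1* (0.036), *Efemp2* (0.04), *Rbpjl* (0.042), *Fbln2* (0.046), *Rnf150* (0.046), *Fkbp9* (0.047), *Fkbp6* (0.049), *Dexi* (0.051) and *Cercam* (0.053). The median distance over all genes was 0.205, and the members themselves lay between 0.104 and 0.259 from their own mean profile. That profile stood at 0.35, 0.06 and 0.01 in PPVL rats 1 to 3 and at -0.13, -0.17 and -0.11 in sham rats 1 to 3, with its highest value in PPVL rat 1. *Efemp2*, at 8.22, 7.97 and 7.83 in PPVL rats 1 to 3 and 7.77, 7.72 and 7.7 in sham rats 1 to 3, had this form. Without PPVL rat 1, 1 of the 10 genes was still among the nearest 10.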
